A study of Mus musculus with 131 samples.

Results

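Enpp2, Spp1, Pla2g1b, Trh and Igfbp2 are 5 genes for secreted proteins whose transcripts were far more abundant in injected than in host cells of chimeric mouse blastocysts. They were picked by name, with results known, from the genes selected for the highest ratio of injected over host cells, so that ratio is given below as a description and is no test. They are 5 of the 13927 genes in the deposited expression table, and each of the 5 symbols matched 1 row. In the study, embryonic stem cells (ESCs) were injected into eight-cell host embryos, and single cells of the resulting blastocysts were picked for RNA sequencing. The 55 RFP cells came from blastocysts at E4.0 (4.0 days of development) and carried an Actin-RFP transgene, which marks the injected ESCs. The 40 GFP cells came from blastocysts of the same age and carried an Actin-GFP transgene, which marks the host. All were C57BL/6J. In both groups the fluorescent reporter is named for actin, a gene active in nearly every cell, so it marks origin and not cell type. Bisulfite sequencing covered 3 cultures of the same strain with 1 library each: Actin-RFP ESCs at passage 10, Gjb2 35delG ESCs at passage 7, which carry a deletion in a gap junction gene, and wild-type mouse embryonic fibroblasts (MEF) at passage 2.

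Enpp2 encodes autotaxin, a secreted lysophospholipase D that makes lysophosphatidic acid (LPA), a lipid that acts on a family of G-protein-coupled receptors. Pla2g1b encodes the pancreatic secreted phospholipase A2, which cuts a fatty acid from phospholipids. Spp1 encodes osteopontin, a secreted phosphoprotein that binds integrins and CD44, and an enhancer of mouse Spp1 bound by the pluripotency factor Oct4 (Pou5f1) has been described in the preimplantation embryo. Trh encodes the precursor of thyrotropin-releasing hormone, a tripeptide cut from a larger protein and best known from the hypothalamus. Igfbp2 encodes a secreted protein that binds insulin-like growth factors (IGFs) and modulates their access to receptors. Transcripts were measured here, and secretion was not.

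RefSeq start-site sequences of build GRCm38.p6 were held for 4 of the 5 members. The 250 bases before the outermost start of each are printed 5′ to 3′ on the gene's strand, with each CG dinucleotide in capitals, because these are the sites at which the bisulfite libraries read methylation and because their density differs greatly among the members.
Spp1, chr5:104434861-104435110, + strand: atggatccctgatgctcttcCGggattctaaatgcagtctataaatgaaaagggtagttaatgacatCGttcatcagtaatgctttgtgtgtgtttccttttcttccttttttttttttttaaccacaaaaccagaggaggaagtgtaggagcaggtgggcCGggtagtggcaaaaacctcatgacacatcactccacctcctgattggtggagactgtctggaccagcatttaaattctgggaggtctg
Pla2g1b, chr5:115465892-115466141, + strand: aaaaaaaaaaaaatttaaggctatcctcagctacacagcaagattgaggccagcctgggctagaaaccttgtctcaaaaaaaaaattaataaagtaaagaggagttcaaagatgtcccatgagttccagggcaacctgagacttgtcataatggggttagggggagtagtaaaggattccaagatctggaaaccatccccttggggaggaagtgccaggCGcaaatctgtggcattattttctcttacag
Trh, chr6:92244651-92244900, - strand: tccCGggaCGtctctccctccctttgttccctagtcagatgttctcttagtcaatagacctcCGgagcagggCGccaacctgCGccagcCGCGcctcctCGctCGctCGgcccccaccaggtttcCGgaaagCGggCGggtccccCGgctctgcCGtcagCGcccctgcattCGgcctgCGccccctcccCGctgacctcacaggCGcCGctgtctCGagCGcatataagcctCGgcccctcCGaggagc
Igfbp2, chr1:72824230-72824479, + strand: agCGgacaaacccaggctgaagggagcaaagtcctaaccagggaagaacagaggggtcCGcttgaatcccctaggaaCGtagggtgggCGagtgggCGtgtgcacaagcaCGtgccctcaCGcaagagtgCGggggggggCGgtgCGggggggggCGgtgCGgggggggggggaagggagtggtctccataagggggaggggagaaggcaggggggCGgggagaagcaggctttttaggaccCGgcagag

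These stretches held 3 CpGs for Spp1, 1 for Pla2g1b, 25 for Trh and 14 for Igfbp2, against a median of 6 (quartiles 2 and 16) over the 32851 sequences of the table. Spp1 and Pla2g1b therefore lie below the median of gene starts in CpG number, and Trh lies above the upper quartile. The letters GGGCGG, a box bound by Sp1, occurred on either strand 1 time in the Trh stretch, 3 times in that of Igfbp2 and in neither of the others, and 32.7% of all the sequences hold it.

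A second annotated Spp1 start lies downstream at position 104436192 of chromosome 5. Its upstream stretch contained the octamer ATGCAAAT, a sequence that POU factors such as Pou5f1 bind, with its first base 210 bases before that start. The 60 bases around it are shown with the octamer in capitals, since Spp1 is the member with a described Pou5f1-bound element.
Spp1 octamer, chr5:104435956-104436015, + strand: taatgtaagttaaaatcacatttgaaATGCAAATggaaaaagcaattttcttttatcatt
Of the 32851 sequences, 526 (1.6%) held the octamer on either strand, and among the members' sequences it was found in this Spp1 sequence and in no other. It shares no bases with a GGGCGG box. The motifs were chosen after the sequences had been read, and a match does not show binding.

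Sequencing depth was alike in both groups, with 0.518 to 9.56 M reads in a single RFP cell (311.3 M in all) and 1.996 to 8.32 M in a single GFP cell (223.6 M in all). The median number of detected genes was 4527 in RFP cells and 5209 in GFP cells. The labels were checked against marker genes: the mean level of 12 epiblast markers exceeded that of 13 trophectoderm markers in 55 of 55 RFP cells, and the reverse held in 39 of 40 GFP cells. Injected or host origin and lineage therefore cannot be told apart in any value below. Of 10 fibroblast markers, 4 were measured, and the highest of them reached 2.17 CPM (reads of a gene per 1000000 reads of the library) over all RFP cells. More than 10% of reads were mitochondrially encoded in 4 RFP cells and 1 GFP cell. Embryos are not named in the labels, and the cells of a group were therefore handled as 1 sample without any test. The intervals given cover counting error only.

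All 5 members were at least 1 higher on the log2 scale in RFP than in GFP cells, when reads were pooled over the cells of a group and a pseudocount of 1 CPM was added. Of all 13927 genes, 25% were, so a log2 ratio of 1 alone is common between these groups. The members' log2 ratios ran from 6.70 to 9.32, which is what they were chosen for.

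**Figure D1:**
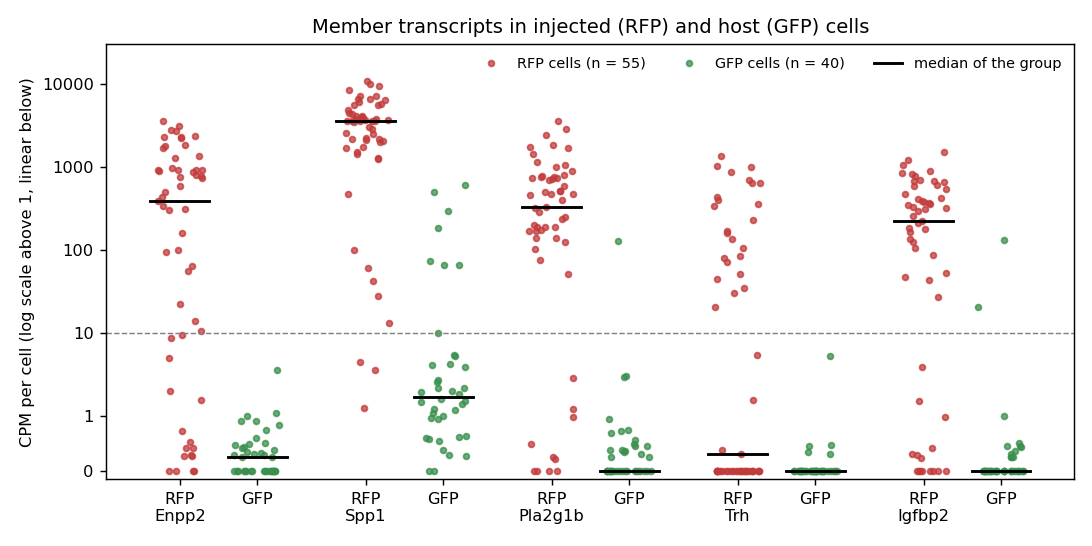
CPM of each member in every single cell (vertical axis, logarithmic above 1 and linear below), with the 55 RFP cells in red to the left of the 40 GFP cells in green for each gene. Black bars are medians and the dashed line marks 10 CPM: Spp1 lies above it in 52 RFP cells and Trh in 24.

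Enpp2 reached 860.4 CPM over all RFP cells (95% Poisson interval 857.1 to 863.6), against 0.344 CPM over all GFP cells (0.272 to 0.430). Single RFP cells ran from 0 through a median of 382.8 to 3505 CPM, and single GFP cells from 0 through 0.259 to 3.54 CPM. The groups overlapped at their low ends, and 42 of 55 RFP cells lay above the highest GFP cell. Autotaxin mRNA was spread over the whole range in injected cells: 32 RFP cells had 100 CPM or more, 11 had less than 1 CPM, and 12 lay between. At 10 CPM or more stood 39 of 55 RFP cells (70.9%, exact binomial interval 57.1 to 82.4) and 0 of 40 GFP cells (exact interval 0 to 8.81, and 3 cells of 40 would be 7.5%).

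Autotaxin's product LPA is sensed by receptors and broken down by lipid phosphatases, and 14 of 17 genes listed around this pathway were measured. The Enpp2 paralogues Enpp1, Enpp3 and Enpp4, all called below, were counted among the 14, and no role in LPA was shown for them here. Of the 14, 4 were at least 1 higher and 4 at least 1 lower in RFP cells on the log2 scale. The median was 0.81, against 0.08 over all genes, of which 25% were higher and 21.9% lower by that much. The receptor gene Lpar6 was at 76.99 CPM in RFP cells and 0.259 CPM in GFP cells. Liph, a phospholipase that also makes LPA, was at 86.35 CPM in RFP cells and 3.27 CPM in GFP cells, and Enpp3, a paralogue of Enpp2, at 77.91 CPM and 4.07 CPM in the same order of groups. Lpar4, another receptor gene, completed the higher ones at 2.08 CPM in RFP cells and 0.00895 CPM in GFP cells. Lower in RFP cells were the receptor gene Lpar1 (1.99 CPM in RFP and 21 CPM in GFP cells), the lipid phosphatase gene Plpp3 (39.87 and 156.5 CPM) and the paralogues Enpp1 (0.0257 and 34.21 CPM) and Enpp4 (0.0129 and 2.17 CPM). Of these 8 calls, 2 rested on 1 cell: without RFP13 the log2 ratio of Lpar4 was 0.83, and all Enpp4 reads of the host came from GFP15, without which it was 0.02. Lpar2, Plpp1, Pla1a and Agk, all at 10 CPM or more in a group, differed by less than 1, with log2 ratios of -0.08, 0.91, 0.84 and 0.78.

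Pla2g1b, the other phospholipid enzyme among the members, reached 581.5 CPM over all RFP cells (578.8 to 584.2), against 1.59 CPM over all GFP cells (1.43 to 1.77). In single RFP cells it ran from 0 through a median of 324.1 to 3522 CPM, and in single GFP cells from 0 through 0 to 127.9 CPM. Of the RFP cells 41 lay above the highest GFP cell. That GFP cell, GFP1, decided the host value: without it the GFP cells were at 0.235 CPM. At 10 CPM or more were 45 RFP cells (81.8%, 69.1 to 90.9) and 1 GFP cell (2.5%, 0.0633 to 13.2). Most RFP cells sat in a middle band, 33 of them from 100 to 1000 CPM, while 8 had less than 1 CPM.

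Among other phospholipases A2, 12 of 17 listed genes were measured, of which 3 were at least 1 higher and 5 at least 1 lower in RFP cells (median 0.17). The shares over all genes were 25% higher and 21.9% lower. The cytosolic enzyme gene Pla2g4a had 4572 reads in RFP cells, which is 14.69 CPM, and no read in GFP cells, where 3 reads would be 0.0134 CPM. Pla2g12a was at 44.5 CPM in RFP cells and 21.41 CPM in GFP cells, and Pla2g6 at 5.91 CPM in RFP cells and 1.01 CPM in GFP cells. The lysosomal enzyme gene Pla2g15 stood the other way, at 0.617 CPM in RFP cells and 63.65 CPM in GFP cells. The other lower genes, Pla2g2f, Pla2g5, Pla2g7 and Pla2g12b, had at most 0.0257 CPM in RFP cells and between 1.08 and 2.51 CPM in GFP cells. Leaving out 1 cell ended the calls of Pla2g2f (-0.62 without GFP16), Pla2g7 (0.00 without GFP9, its only host cell with reads) and Pla2g12b (-0.44 without GFP33). Among the higher genes, Pla2g12a lay at the threshold with a log2 ratio of 1.02. Leaving out any 1 of 37 cells ended its call (0.86 without RFP36). Pla2g10, a secreted enzyme like Pla2g1b, was at 57.34 CPM in RFP cells and 34.97 CPM in GFP cells, a log2 ratio of 0.70.

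Spp1 reached 3792 CPM over all RFP cells (3786 to 3799), against 35.59 CPM over all GFP cells (34.81 to 36.38). Single RFP cells ran from 1.23 through a median of 3539 to 10896 CPM, and single GFP cells from 0 through 1.70 to 603.3 CPM. No RFP cell lacked a read of it, 46 of 55 had 1000 CPM or more, and these same 46 lay above the highest GFP cell. Osteopontin mRNA was also the member found most widely in the host, at 10 CPM or more in 8 of 40 GFP cells (20%, 9.05 to 35.6) against 52 of 55 RFP cells (94.5%, 84.9 to 98.9).

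The GFP cells with Spp1 differed in their markers. GFP1, at 603.3 CPM, had nearly equal mean levels of epiblast and trophectoderm markers, 3.59 and 3.83 on the scale of log2(CPM + 1). GFP36, at 495.4 CPM, and GFP39, at 64.55 CPM, had mean levels of 6.59 and 5.15 for primitive endoderm markers, a list whose median over GFP cells was 1.44, and their trophectoderm means were 5.75 and 5.13. GFP40 (294.6 CPM), GFP11 (182.1 CPM), GFP33 (73.61 CPM), GFP15 (66.06 CPM) and GFP8 (10.02 CPM) had trophectoderm means between 4.78 and 6.10 and primitive endoderm means between 1.102 and 1.82. These cells were singled out after their values had been seen.

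Osteopontin acts through integrins and CD44, and 6 of 10 listed receptor genes were measured. In RFP cells 1 was at least 1 higher and 4 at least 1 lower on the log2 scale, with a median of -1.57. Over all genes 25% were higher and 21.9% lower by that much. Itga4, the alpha-4 subunit, was at 11.73 CPM in RFP cells and 0.0358 CPM in GFP cells. Itgav, the alpha-v subunit, was at 0.919 CPM in RFP cells and 18.05 CPM in GFP cells, Itgb5 at 16.66 CPM in RFP cells and 62.52 CPM in GFP cells, and Itgb1 at 57.86 CPM in RFP cells and 143.6 CPM in GFP cells. Itga5 had no read in RFP cells and 4.68 CPM in GFP cells. Cd44 was near 0 in both groups, at 0.0643 CPM in RFP cells and 0 reads in GFP cells.

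Trh was the most unevenly distributed member. It reached 136.5 CPM over all RFP cells (135.2 to 137.8), against 0.143 CPM over all GFP cells (0.0979 to 0.202), and without the cell GFP23 the GFP value was 0.0365 CPM. Single RFP cells ran from 0 through a median of 0.307 to 1361 CPM, and single GFP cells from 0 through 0 to 5.31 CPM. In 27 RFP cells no read was found, whereas 24 (43.6%, 30.3 to 57.7) had 10 CPM or more and 25 lay above the highest GFP cell. Just 5 RFP cells supplied 59.9% of all Trh reads of the group, compared with 38.1% for Enpp2, 38.1% for Pla2g1b, 31.9% for Igfbp2 and 27.2% for Spp1.

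Making the hormone takes proteolytic and amidating enzymes, and 11 of 13 listed genes for these steps, for receptors and for breakdown were measured. In RFP cells 5 were at least 1 higher and 3 at least 1 lower (median 0.63), against 25% higher and 21.9% lower over all genes. The higher ones were Qpctl and Qpct, whose enzymes close the N-terminal glutamine ring (11.69 and 2.397 CPM in RFP cells, 0.0358 CPM and 0 reads in GFP cells), the processing genes Cpe and Pcsk1 (6.64 and 1.82 CPM in RFP cells, 0.0179 CPM and 0 reads in GFP cells) and Pam, the amidating enzyme (4.36 CPM in RFP cells, 0.465 CPM in GFP cells). Except for Qpctl they were below 10 CPM. All Qpct reads came from 1 RFP cell, RFP29, and without RFP26 the log2 ratio of Pcsk1 was 0.02, so with either cell left out that gene's call ended. Prep, a peptidase that cleaves small peptides, was at 13.14 CPM in RFP cells and 209.5 CPM in GFP cells. Cpd, a carboxypeptidase gene, was at 5.12 CPM in RFP cells and 25.13 CPM in GFP cells, and the receptor gene Trhr2 had no read in RFP cells and 2.997 CPM in GFP cells.

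Igfbp2 reached 317.3 CPM over all RFP cells (315.3 to 319.2), against 2.05 CPM over all GFP cells (1.87 to 2.25), and without GFP1 the GFP value was 0.678 CPM. Single RFP cells ran from 0 through a median of 218.6 to 1482 CPM, and single GFP cells from 0 through 0 to 129.6 CPM. At 10 CPM or more were 40 RFP cells (72.7%, 59.0 to 83.9) and 2 GFP cells (5%, 0.611 to 16.9), and 33 RFP cells lay above the highest GFP cell. Like Pla2g1b it had a broad middle band, with 32 RFP cells from 100 to 1000 CPM, and 13 RFP cells had less than 1 CPM.

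Of 18 other listed genes of the IGF pathway, 12 were measured, of which 4 were at least 1 higher and 2 at least 1 lower in RFP cells (median 0.57). Beside them, 25% of all genes were higher and 21.9% lower by that much. The type 1 receptor gene Igf1r was at 26.06 CPM in RFP cells and 2.32 CPM in GFP cells. Igfbp3, another binding protein gene, was at 12.78 CPM in RFP cells and 0.00895 CPM in GFP cells, but 3 RFP cells alone were at 10 CPM or more. Irs2 and Stc2 completed the higher genes at 5.34 and 1.62 CPM in RFP cells, against 2.004 and 0.152 CPM in GFP cells, and their log2 ratios were 0.51 without RFP44 and 0.84 without RFP36. Igfbp4 was at 5.67 CPM in RFP cells and 30.26 CPM in GFP cells, and Igf2r, which clears IGF2, at 16.88 CPM in RFP cells and 48.69 CPM in GFP cells. The ligand gene Igf2 had no read in RFP cells and 0.286 CPM in GFP cells.

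To read the spread of the members against other transcripts, they were set beside the 2076 genes at 100 CPM or more over all RFP cells. The coefficient of variation of CPM over RFP cells was 0.75 for Spp1, 1.08 for Igfbp2, 1.23 for Enpp2, 1.24 for Pla2g1b and 1.91 for Trh, and the median of the 2076 genes was 1.09. Trh varied more than 94.3% of these genes and Spp1 more than 16.5% of them, while Igfbp2, Enpp2 and Pla2g1b varied more than 49.4%, 64.5% and 64.8%. By the share of RFP cells at 10 CPM or more, 1.01% of these genes were found in fewer cells than Trh and 85% in fewer cells than Spp1, whereas the median gene was at that level in 76.4% of cells. Of the members, Trh therefore stood at the uneven end of abundant transcripts and Spp1 toward the even end, and the other 3 were in the middle range. Both measures depend on level, and the 2076 genes were not matched to the members by it. Trh was at 136.5 CPM and Spp1 at 3792 CPM over all RFP cells, and the part of level in this order was not tested.

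The members were then counted together in each cell. Of 55 RFP cells, 15 had all 5 members at 10 CPM or more (27.3%, 16.1 to 41), 20 had 4, 11 had 3, 5 had 2, 2 had 1 and 2 had none. Of 40 GFP cells, 31 had none, 8 had 1 and 1 had 3. At least 3 members thus stood at this level in 46 RFP cells (83.6%, 71.2 to 92.2) and in 1 GFP cell (2.5%, 0.0633 to 13.2). That host cell was GFP1, which had Spp1, Pla2g1b and Igfbp2 and no read of Enpp2 or Trh. The members were chosen for a high ratio of RFP over GFP cells, so this contrast between the groups is no test. Joint presence beyond the members' single shares of cells was not tested. Of the 4 RFP cells with fewer than 2 members, RFP6, RFP41 and RFP44 had 62.0%, 10.8% and 16.4% mitochondrially encoded reads and RFP22 had 8.07%. The part of RNA quality in these counts was not tested beyond leaving out the 4 RFP cells over 10%, which gave 15 of 51 cells (29.4%) with all 5.

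**Figure D2:**
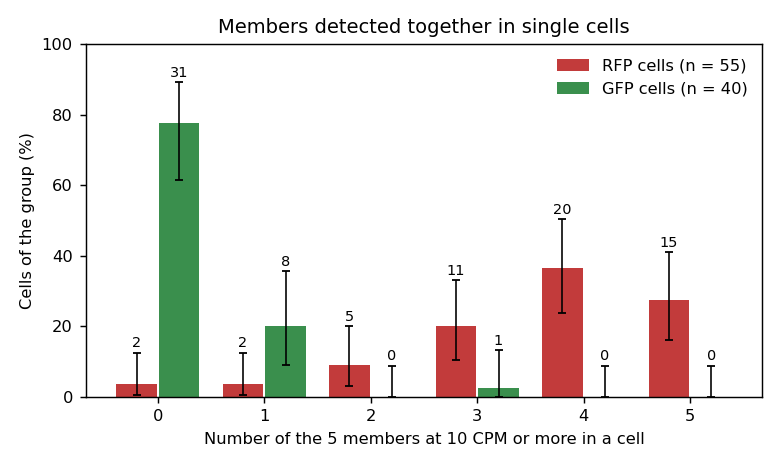
Share of the cells of each group (vertical axis, %) by how many of the 5 members stood at 10 CPM or more (horizontal axis), with 55 RFP cells in red left of 40 GFP cells in green. Error bars are exact 95% binomial intervals and numbers are cells: 46 RFP cells have 3 or more members, and 31 GFP cells have none.

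Although most injected cells held several members, the levels of the members followed each other loosely. Spearman's rho over the 55 RFP cells ran from -0.03 to 0.38 over the 10 pairs, with a median of 0.10, and is given as a description because cells of a shared embryo are not independent. Trh and Igfbp2 had the highest rho, 0.38, and 22 of the 24 cells with Trh at 10 CPM or more also had Igfbp2 at that level. Spp1 and Pla2g1b followed with a rho of 0.35, and all 45 cells with Pla2g1b also had Spp1, which 52 of 55 cells had. The points of these pairs share the number of genes detected in a cell, with which rho was 0.40 for Igfbp2, 0.34 for Trh, 0.345 for Enpp2, -0.12 for Spp1 and -0.19 for Pla2g1b. Given that number, the partial rank correlation was 0.28 for Trh with Igfbp2 and 0.335 for Spp1 with Pla2g1b. Without the 4 RFP cells over 10% mitochondrially encoded reads, the median of the 10 pairs was -0.0029, Spp1 with Pla2g1b had a rho of 0.22 and Trh with Igfbp2 a rho of 0.42.

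Pluripotency genes were read in the same cells. Among core factors, Utf1, a chromatin factor of pluripotent cells, was at 10 CPM or more in 48 of 55 RFP cells, and in 39 of the 40 cells with Igfbp2, 36 of 39 with Enpp2, 41 of 45 with Pla2g1b, 46 of 52 with Spp1 and 23 of 24 with Trh. Sall4 was likewise frequent, in 50 of 55 RFP cells, and Lin28a was not, in 12 of 55. Pou5f1 was at that level in 28 of 55 RFP cells, in 24 of the 40 with Igfbp2 and in 26 of the 52 with Spp1. Its rho was 0.32 with Trh, 0.30 with Igfbp2, 0.19 with Enpp2, -0.002 with Pla2g1b and -0.15 with Spp1. Given the genes detected, these values were 0.16, 0.10, -0.01, 0.13 and -0.10 in the same order. Nanog was at 10 CPM or more in 13 of 55 RFP cells and in 10 of the 24 with Trh. Its rho with Trh, 0.38, was the highest it had with a member. Sox2 had a rho between -0.125 and -0.0263 with each of the 5 members.

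At the level of gene lists, the members fell on different sides. The mean level of 12 formative pluripotency genes, which mark the epiblast as it leaves the naive state, had a rho of 0.46 with Igfbp2, 0.37 with Enpp2, 0.24 with Trh, -0.12 with Pla2g1b and -0.19 with Spp1. This list level itself had a rho of 0.76 with the genes detected per cell, and given that number the values were 0.26 for Igfbp2, 0.18 for Enpp2, -0.04 for Trh, 0.05 for Pla2g1b and -0.15 for Spp1. Without the 4 RFP cells over 10% mitochondrially encoded reads, Spp1 stood at -0.43, Pla2g1b at -0.36, Igfbp2 at 0.38, Enpp2 at 0.24 and Trh at 0.25. The directions for Pla2g1b and Trh thus turned given the number of genes detected, and that for Spp1 was negative in all 3 readings.

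Naive pluripotency genes, 12 in number, had their highest rho with Spp1 (0.25), followed by Igfbp2 (0.24), Trh (0.20), Pla2g1b (0.14) and Enpp2 (-0.03), and given the genes detected Spp1 stood at 0.30. Without the 4 RFP cells over 10% mitochondrially encoded reads this order was lost, with 0.265 for Trh, 0.225 for Igfbp2, 0.199 for Spp1, 0.03 for Pla2g1b and -0.15 for Enpp2. Among the naive genes at 10 CPM or more over all RFP cells, Klf2 had the highest rho with Spp1, 0.36. Given the genes detected, the value for Klf2 was 0.38. Zfp42 followed with a rho of 0.255, Esrrb with 0.20, Nr0b1 with 0.165, Dppa3 with 0.06, Tfcp2l1 with 0.05 and Klf5 with -0.03. The 6 core genes had a rho of 0.35 with Trh, 0.33 with Igfbp2, 0.15 with Enpp2, 0.01 with Spp1 and -0.105 with Pla2g1b. Given the genes detected, Trh stood at 0.19, Igfbp2 at 0.11, Enpp2 at -0.10, Spp1 at 0.11 and Pla2g1b at 0.02. The directions for Enpp2 and Pla2g1b thus turned. Without the 4 cells, the values were 0.44 for Trh, 0.305 for Igfbp2, 0.04 for Enpp2, -0.09 for Spp1 and -0.26 for Pla2g1b. The mitochondrially encoded share of reads had a rho of -0.495 with Igfbp2, -0.35 with Trh and -0.305 with Enpp2, and its part in these relations was not tested beyond the values without the 4 cells.

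**Figure D3:**
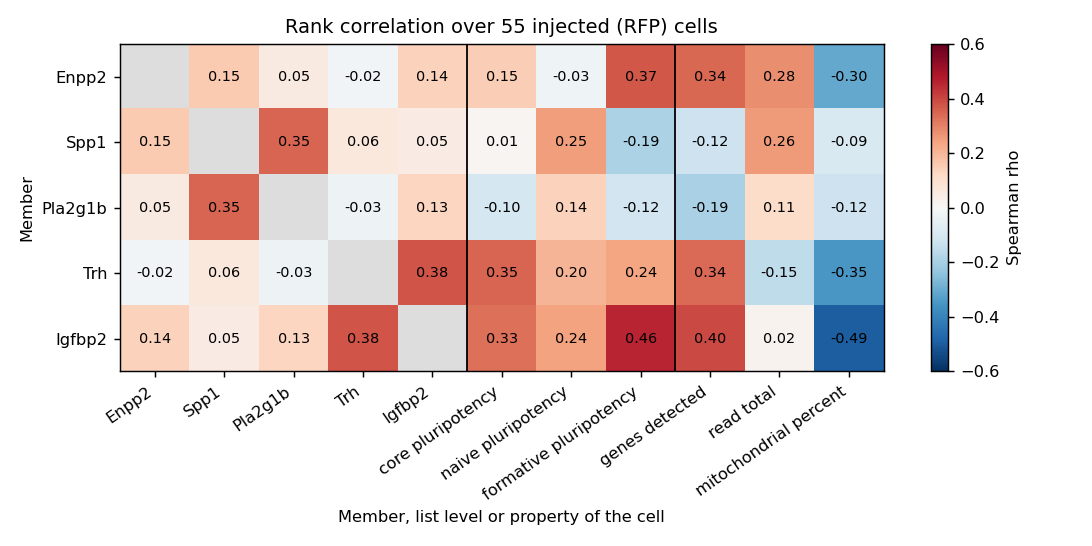
Spearman's rho over 55 RFP cells between each member (rows) and the other members, the mean level of 3 pluripotency lists, and the genes detected, read total and mitochondrial percent of the cell (columns), coloured from -0.6 in blue to 0.6 in red. The highest value among lists is 0.46 for Igfbp2 with formative genes, which rise with genes detected.

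By rank over the 55 RFP cells, the genes most like each member came from 3711 compared genes with a read in at least 50% of RFP cells and at least 10 CPM. For Igfbp2 they were Stip1 (rho 0.64), Fkbp4 (0.63), Tnrc6c (0.62), Aldoa (0.62) and Ptov1 (0.60). Stip1 and Fkbp4 encode co-chaperones of Hsp90, and Aldoa a glycolytic enzyme. For Enpp2 the list was Ddx18, Naa20, Rida, Arl1 and Cyb5b (0.57 to 0.54), for Spp1 Mrps14, Nop16, Set, Trim13 and Spin1 (0.56 to 0.53), for Pla2g1b Ndufa11, Eef1e1, Brix1, Szrd1 and Mrpl42 (0.57 to 0.44), and for Trh Poldip3, Tuba1a, Mthfd1, Pithd1 and Smagp (0.52 to 0.49). No gene stood in the list of more than 1 member, and no pluripotency gene stood in any. Lists of 5 from 3711 genes would rarely share a gene anyway. The filter also left out pluripotency genes such as Esrrb, with reads in 20 RFP cells. The lack of overlap is therefore no result about the members. The values named are the highest of 3711 for each member. Given the genes detected, those of Igfbp2 ran from 0.49 to 0.56 and those of Trh from 0.38 to 0.44. For Enpp2 they then ran from 0.455 to 0.576, for Spp1 from 0.52 to 0.557 and for Pla2g1b from 0.404 to 0.556.

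The bisulfite libraries show the members' start sites in cultured cells, which are not the picked blastocyst cells. Values are the share of methylated calls among all calls in windows of 200 bp within 2000 bp of the outermost start, and negative distances lie upstream, except for Enpp2. The tables used here give no strand for Enpp2 (chr15:54838901-54952789). The gene end at which more CpGs had calls, position 54952789 (at most 141, against 69 at the other end), was therefore taken as its start. Negative distances for Enpp2 are at lower coordinates, which lie inside the gene. Over the whole genome, 38.6% of calls were methylated in Actin-RFP ESCs, 66.2% in Gjb2-35delG ESCs and 78.2% in MEF, so a lower value in the ESC lines is the rule and not a feature of the members.

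Spp1 had 4.45% methylated calls in Actin-RFP ESCs (Wilson interval 3.17 to 6.22, 719 calls), 8.98% in Gjb2-35delG ESCs (7.20 to 11.1, 813 calls) and 67.0% in MEF (63.7 to 70.1, 812 calls). Of all 10996 gene starts measured the same way, 0.846% had a larger difference to MEF in Actin-RFP ESCs and 0.291% in Gjb2-35delG ESCs. Each of its 17 covered windows was below 20% in Actin-RFP ESCs, and 14 of 17 were at 50% or more in MEF. In Gjb2-35delG ESCs the windows centred from -1811 to 189 bp of the start were between 0% and 8.33%, and those further downstream between 9.84% and 32%. Around the second Spp1 start the values were 4.76% in Actin-RFP ESCs, 18.6% in Gjb2-35delG ESCs and 79.6% in MEF, and the window that holds the octamer shown above had no calls in any of the 3 libraries.

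Pla2g1b had 10.1% in Actin-RFP ESCs (8.59 to 11.9, 1305 calls), 25% in Gjb2-35delG ESCs (22.5 to 27.8, 1002 calls) and 76.1% in MEF (73.6 to 78.5, 1157 calls). A larger difference to MEF was found at 0.527% of gene starts in Actin-RFP ESCs and at 0.600% in Gjb2-35delG ESCs. In Gjb2-35delG ESCs it was near the median of all starts (22.2%), and single windows downstream reached 84.6% there (39 calls at 1758 bp). Both CpG-poor members, Spp1 and Pla2g1b, thus had high methylation around the start in MEF and much lower values in either ESC library. The difference between the ESC libraries was -14.9 points at Pla2g1b, Actin-RFP minus Gjb2-35delG, and -4.53 points at Spp1, against a median of -10.0 over all starts.

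Trh had 5.26% in Actin-RFP ESCs (4.21 to 6.56, 1406 calls), 13.6% in Gjb2-35delG ESCs (11.5 to 16.2, 828 calls) and 42.2% in MEF (38.5 to 45.9, 671 calls). Its CpG-rich core had little methylation in every library: the window centred at -50 bp from the start had 2.44% in Actin-RFP ESCs, 0% in Gjb2-35delG ESCs and 0% in MEF, on 246, 61 and 41 calls. The difference lay in the flanks, where the window centred at 1150 bp had 13.6%, 47.1% and 84.2% in the same order, on 22, 17 and 19 calls.

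Igfbp2 had 3.52% in Actin-RFP ESCs (2.78 to 4.44, 1904 calls), 7.80% in Gjb2-35delG ESCs (6.24 to 9.71, 923 calls) and 33.6% in MEF (30.7 to 36.7, 964 calls). As at Trh the core held little methylation, with 0% in all 3 libraries in the window centred at 220 bp (189, 65 and 55 calls). Upstream, the window centred at -1580 bp had 1.15% in Actin-RFP ESCs, 4.84% in Gjb2-35delG ESCs and 74.3% in MEF, on 87, 62 and 109 calls. The second Igfbp2 start, inside this core, had 3.02% in Actin-RFP ESCs, 2.30% in Gjb2-35delG ESCs and 16.9% in MEF.

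At the chosen gene end, Enpp2 differed least from MEF in either ESC library, with 27.6% in Actin-RFP ESCs (25.1 to 30.2, 1142 calls), 35.9% in Gjb2-35delG ESCs (33 to 38.9, 1012 calls) and 53.1% in MEF (49.6 to 56.6, 774 calls). At its other end the values were 42.3%, 77.2% and 88.2% in the same order, so its rank in Actin-RFP ESCs depends on the end taken. The window centred at -289 bp from the chosen gene end had 3.49% in Actin-RFP ESCs, 4.41% in Gjb2-35delG ESCs and 4.76% in MEF, on 258, 272 and 42 calls, so a stretch with little methylation was present in all 3. Its flanks stayed methylated in Actin-RFP ESCs too, with 68.6% in the window centred at 911 bp (102 calls).

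**Figure D4:**
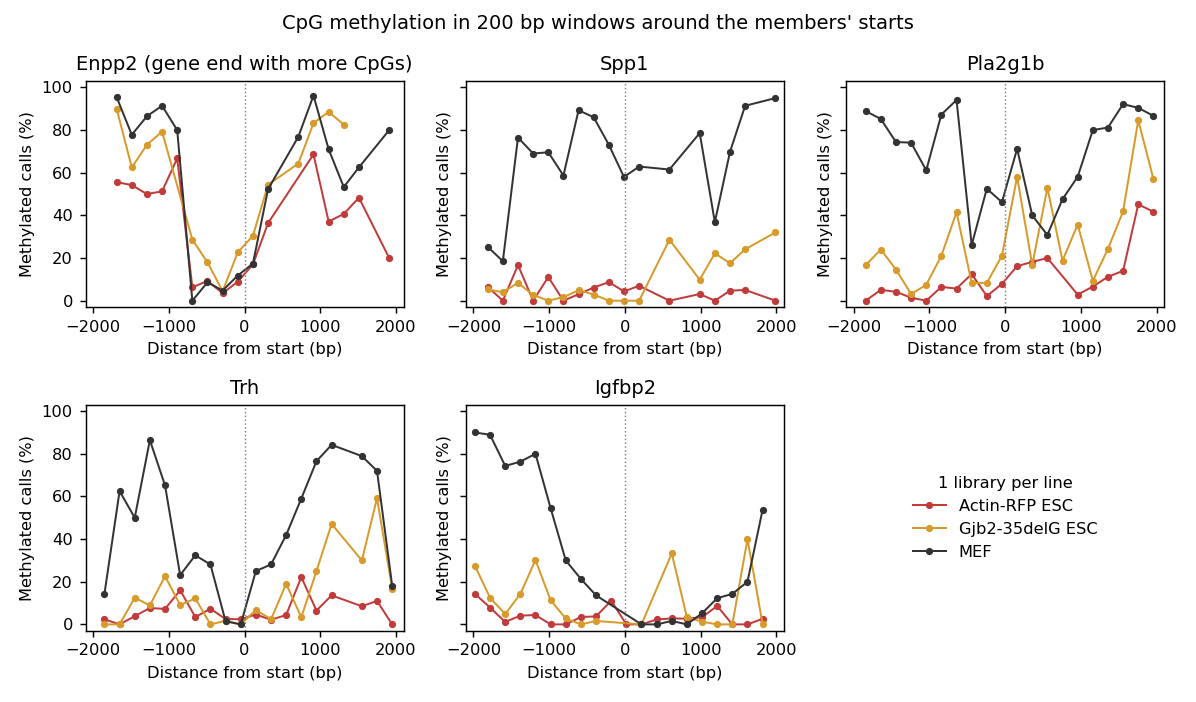
Methylated calls (%, vertical axis) in 200 bp windows with at least 5 calls, by distance from the start in bp (horizontal axis, along the gene's strand, or along the chromosome for Enpp2), for Actin-RFP ESCs in red, Gjb2-35delG ESCs in yellow and MEF in black. Spp1 and Pla2g1b are methylated across the start in MEF, whereas Trh, Igfbp2 and Enpp2 have a core with little methylation in all 3 libraries.

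A start at least 30 points lower than in MEF was found for 4 of 5 members in Actin-RFP ESCs, against 30.9% of all 10996 gene starts. Igfbp2 passed narrowly with -30.1 points, Trh with -36.9, and within 1000 bp or 500 bp of the start the count was 2 of 5, Spp1 and Pla2g1b. In Gjb2-35delG ESCs it was found for 2 of 5, Spp1 and Pla2g1b, against 6.23% of all starts, and within 500 bp for 1, Spp1. The members' median was 5.26% in Actin-RFP ESCs, 13.6% in Gjb2-35delG ESCs and 53.1% in MEF, while the median of all starts was 11.6%, 22.2% and 35.6% in the same order. The differences of Trh, Igfbp2 and Enpp2 to MEF in Actin-RFP ESCs were exceeded at 17.3%, 30.6% and 42.6% of gene starts, so they lay within the common range. With 1 library per line, a difference between lines and one between libraries cannot be told apart.

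**Figure D5:**
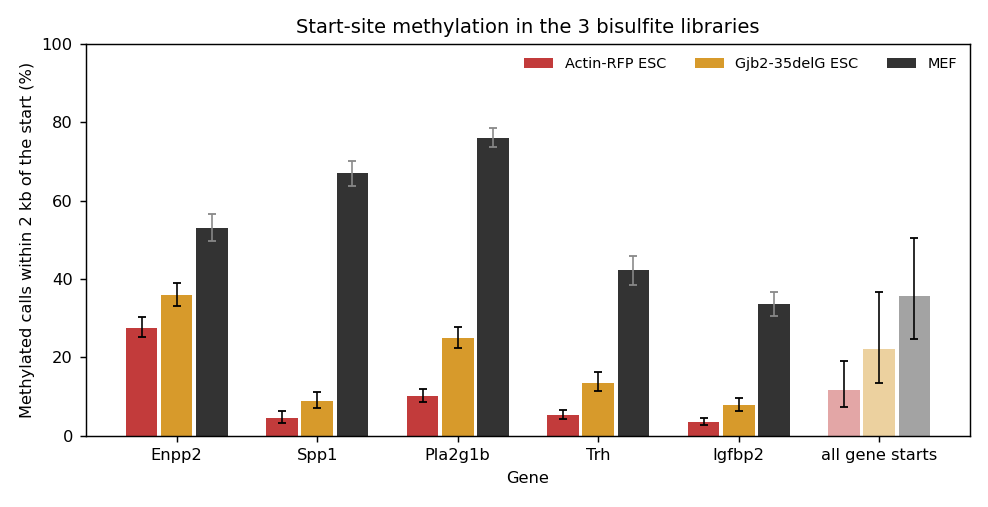
Methylated calls within 2 kb of the start (%, vertical axis) for the 5 members, with Wilson 95% intervals as error bars, and for all 10996 gene starts as the median with quartiles as error bars. Spp1 and Pla2g1b show the widest gap between the ESC libraries (red and yellow) and MEF (black).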

How the data were processed

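Per the labels' protocols, each cell was lysed in its own tube after being picked, and its cDNA was amplified with a kit for full-length mRNA, for which no molecular identifiers are mentioned. Tools named in the submitters' processing notes are DESeq2 1.30.0, deepTools 3.3.1, StringTie 2.0, featureCounts 2.0.0, STAR 2.7.3a and fastp 0.20.0. Their roles are unstated, and the build is mm10. Expression was deposited as a signal, that is, reads of a gene which the authors divided by a factor for each cell. All values were whole multiples of a step per cell within 0.01, so reads were recovered by dividing by it and scaled to CPM per cell, or pooled over a group. In RFP18 and RFP39 the step lay near 1 (0.996 and 0.99), where whole multiples say less; leaving both out changed no member's call. Neither the strand of counting nor transcript lengths are stated, so the members are not ranked by level, and comparisons between marker lists rest on CPM that is not scaled to length. No count model was fitted, since a group is 1 sample where embryos are not named. For the bisulfite libraries, aligner and caller were not given in the sources used here. For each 200 bp window the authors deposited a methylation fraction with its counts of methylated calls and of unmethylated ones. Calls were summed within 2000 bp of a start, with at least 20 calls per library for the 10996 starts of all genes. Start sites follow RefSeq on GRCm38, the assembly behind mm10.

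Shares of cells carry exact binomial, CPM exact Poisson and methylation Wilson intervals at 95%, which cover counting error only, since PCR copies are not independent molecules. The named genes are the members, genes of the pathway and pluripotency lists that reach 10 CPM in a group, and the 5 genes with the highest rho to each member. Not named above, though at that level, are Pgpep1 of the Trh list, the naive genes Klf4 and Nr5a2, and 9 formative genes. Other list genes, below 10 CPM, were named after their values were seen, most of them where they were counted as higher or lower. Single GFP and RFP cells were named after their values were seen. The members, lists, thresholds and alternatives were chosen with earlier results of these data known. The ratio and correlation steps were tested on simulated data. The amplicon counts and the other cells and embryos of the series are not analysed here. Computation used Python 3.11.15, numpy 2.4.6, scipy 1.17.1, pandas 2.3.3 and matplotlib 3.10.9.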

Additional observations from a re-analysis of the deposited data

How the results depend on the processing

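All 5 members stayed at least 1 higher in RFP cells under the 9 alternatives run: pseudocounts of 0.1 and 10, means of CPM or of log2(CPM + 1) over cells, the authors' scaling, and leaving out cells over 10% mitochondrial, cells under 2000000 reads, GFP1, or both RFP18 and RFP39 (the last pair and GFP1 added after seeing the data). Leaving out each cell in turn, also added then, ended 10 of the 35 calls in the pathway lists. The size of the ratio depended on them, most for Trh, whose log2 ratio of 6.91 became 3.31 as a mean of log2 values and 10.10 with the authors' scaling. With genes under 10 CPM in both groups left out, 26.3% of genes were at least 1 higher in RFP cells.

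The share of RFP cells with all 5 members was 41.8% at 1 read or more and 12.7% at 100 CPM. It was 34.5% at 1 CPM and 29.1% after each cell was thinned to 500000 reads. The median correlation between members was 0.252 as Pearson's r on log2(CPM + 1), and it turned to -0.0029 without the cells over 10% mitochondrial; the cause was not tested. The partial rank correlation given the genes detected, added after seeing the data, moved 10 of the 15 correlations with pluripotency lists by 0.1 or more, and leaving out the cells over 10% mitochondrial moved 8.

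Median start methylation within 1000 bp was 6.15% in Gjb2-35delG ESCs and 36.2% in MEF, and within 500 bp 2.5% and 18%, because the narrower windows keep the cores of Trh, Igfbp2 and Enpp2. With every member read at its other gene end, also those with a RefSeq start, this median was 19.8% in Actin-RFP ESCs, 49.2% in Gjb2-35delG ESCs and 88.2% in MEF. The count of members at least 30 points below MEF was 2 in Actin-RFP ESCs within 1000 bp and within 500 bp, and 1 in Gjb2-35delG ESCs within 500 bp, settings added after seeing the data for this count. Without Enpp2, an alternative added after seeing the data, the median start methylation within 2000 bp was 11.3% in Gjb2-35delG ESCs. Spp1 within 500 bp was at 6.22% in Actin-RFP ESCs, 1.49% in Gjb2-35delG ESCs and 71.9% in MEF. No paired analysis was possible because the numbers of the cells only name them and no test was run. With 55 and 40 cells of an unknown number of embryos, and 1 library per cell line, these data hold no replicate error.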
